A study of Mus musculus with 6 samples.

Results

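The proximal tubule takes most of the filtered glucose, phosphate, bicarbonate, sulfate and sodium back into the blood, and the transcripts of 10 transporter genes that carry out this work were followed in the kidneys of lupus-prone and control mice. The 10 genes were *Slc5a2*, *Slc5a1*, *Slc2a2*, *Slc34a1*, *Slc34a3*, *Slc20a1*, *Slc9a3*, *Slc4a4*, *Slc13a1* and *Slc13a3*. They were taken by name from the array annotation, with every probe that carries one of these names and is not a control. This gave 21 probes among 56605 on the array, and 10 genes among 36870 gene names. This rule used names and no measured value, but the members were chosen with earlier results of these data known.

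Whole kidneys of MRL mice (MRL/MpJ, the control strain, with a normal *Fas* gene) and LPR mice (MRL/MpJ-*Fas* lpr/lpr, which carry a defective *Fas* gene on the same background) were compared. All mice were females at 6 months of age, and the labels name no drug treatment. Each group had 3 mice, with 1 single-colour array of 1 slide per mouse. LPR mice develop a systemic autoimmune disease with nephritis, and the study asked how lymphoid tissue forms around their renal vessels. The sample was the whole organ, so that every cell type of the kidney contributed to each value.

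Most members are sodium cotransporters. Those in the brush border draw their substrate out of the filtrate along the sodium gradient, which the sodium pump on the opposite side of the cell keeps up. *Slc2a2* and *Slc4a4* encode exits on the blood side, for glucose and for sodium with bicarbonate. The exchanger encoded by *Slc9a3* brings sodium in and sends protons out. Loss of these activities is known from inherited renal glucosuria, phosphate wasting and proximal tubular acidosis.

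The probes that the results turn on are shown first, 5′ to 3′ and in lower case as designed. Each is 60 bases long. Positions are those of the array annotation on mouse build mm9, and the exons of that build were not used here. The first 3 of the following probes span 709, 607 and 806 bases of the genome, more than their own length, so each is split on the genome. The *Slc34a3* probe lies within 60 bases. The first is the probe with the largest fall among the brightest ones, and the others are the second probes of genes whose brightest probe lies elsewhere.
Slc2a2, chr3:28625253-28625961, plus strand: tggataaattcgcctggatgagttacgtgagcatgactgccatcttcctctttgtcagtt
Slc9a3, chr13:74300566-74301172, plus strand: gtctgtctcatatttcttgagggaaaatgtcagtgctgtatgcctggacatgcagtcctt
Slc5a2, chr7:135412649-135413454, plus strand: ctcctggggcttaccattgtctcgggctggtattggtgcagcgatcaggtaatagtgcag
Slc34a3, chr2:25086307-25086366, minus strand: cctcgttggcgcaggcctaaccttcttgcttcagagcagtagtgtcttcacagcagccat

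Signals are given as log2 normalized signals, the log2 of the processed signal minus the 75th percentile of the array. A value of 0 is thus a signal equal to that percentile. The signals of different probes are not compared. Probes entered the test if 3 or more of the 6 arrays showed them well above background, and a change was called when limma gave a Benjamini-Hochberg adjusted p under 0.05 over all 39924 tested probes. Each gene is represented by its brightest tested probe, the one of highest mean signal.

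Of the 10 transporter genes, 4 were lower in LPR kidneys, 0 were higher, and 6 did not pass the test. The background rate was 5.47% of 25805 genes called lower and 7.12% called higher. The 4 genes were *Slc2a2*, *Slc4a4*, *Slc5a2* and *Slc9a3*, with falls of 0.48 to 0.90 on the log2 scale. At an unadjusted p under 0.05 limma counted 7 genes lower and 0 higher, against 18.9% of all genes lower and 10.5% higher. Of the 21 probes, 19 were tested, and 8 were lower and 0 higher, against 6.17% lower and 6.53% higher among all tested probes. In bulk tissue, fewer cells of a type and less RNA per cell cannot be told apart.

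The median log2 change of the 10 genes was -0.45, beside -0.14 for all tested probes. In 7 of the 10 genes every LPR mouse lay below every MRL mouse, and in 0 genes every LPR mouse lay above. Over all genes, 25.6% had every LPR mouse below and 11.7% had every LPR mouse above. The 3 genes with overlapping groups were *Slc34a1*, *Slc13a1* and *Slc13a3*. Among the 19 tested probes, all LPR mice were below in 14, against 26.9% of all tested probes. In 0 of the 19 were they all above, against 11% of all tested probes.

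**Figure D1:**
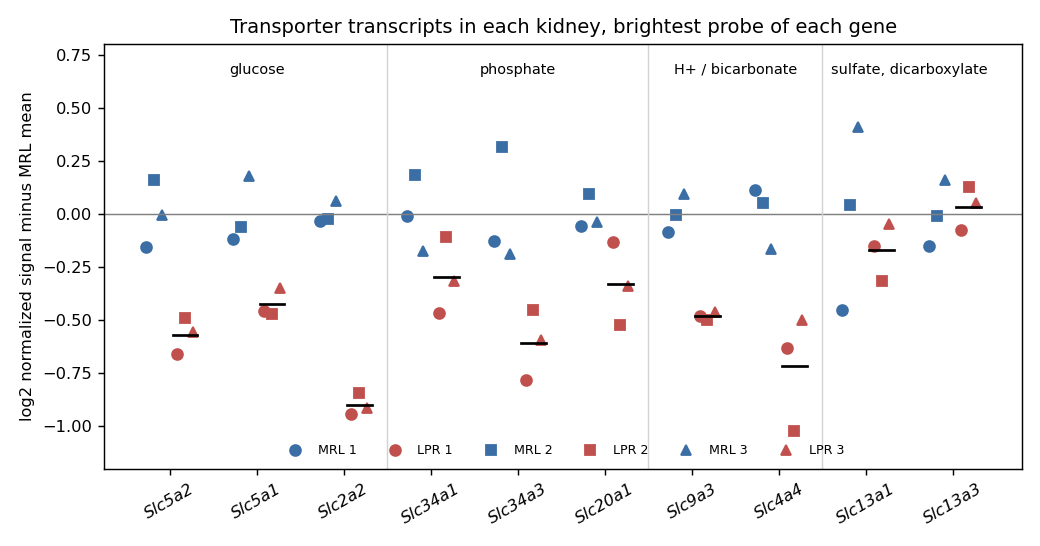
The log2 normalized signal of each mouse minus the mean of the 3 MRL mice is plotted for the brightest probe of each of the 10 genes, with blue for MRL, red for LPR, 1 marker shape per replicate number and a black line at the LPR mean. The 3 LPR mice lie below all MRL mice for 7 genes, deepest for Slc2a2 at a mean of -0.90, and overlap them for Slc34a1, Slc13a1 and Slc13a3.

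Glucose leaves the filtrate through SGLT2 (*Slc5a2*), the high-capacity cotransporter of the early proximal tubule, and SGLT1 (*Slc5a1*), the high-affinity cotransporter further down. GLUT2 (*Slc2a2*) lets it out on the blood side by facilitated diffusion. Of these 3 genes, 2 were lower in LPR kidneys.

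*Slc2a2* had 1 probe, the first sequence above. Its log2 normalized signal was 0.75, 0.76 and 0.84 in MRL 1 to 3, and -0.16, -0.06 and -0.13 in LPR 1 to 3. The groups were far apart and each was tight, with an SD of 0.05 in both. The change was -0.90 with an SE of 0.10 (95% interval -1.13 to -0.67), a signal 1.87-fold lower in LPR, with an adjusted p of 0.00145 by limma. It was the largest fall among the brightest probes of the 10 genes. It remained called under each of the 21 other ways of processing that were run.

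For *Slc5a2* the brightest probe (chr7:135415884-135415943) gave 6.04, 6.36 and 6.20 in the MRL mice. The LPR mice gave 5.54, 5.71 and 5.64, all below the lowest control. The change was -0.57 with an SE of 0.12, 1.48-fold lower, at an adjusted p of 0.027 by limma. This call was lost under 10 of the 21 other ways of processing. Among these, the adjusted p by limma was 0.0965 without MRL 2, 0.0838 without MRL 3, 0.0715 without LPR 1 and 0.0801 without LPR 3. It was 0.0596 without the filter on dim probes, 0.0732 with the mean of both probes and 0.146 with scaling to proximal tubule markers. The t-test of the paper's methods, adjusted here over all tested probes, gave 0.0597 on log2 values and 0.0755 on linear values. Its unadjusted p was under 0.05 on both scales. The paper names no adjustment and tested only genes changed at least 10-fold, a change that no member reached. The second *Slc5a2* probe, shown above, gave 2.38, 2.68 and 2.27 in MRL and 2.11, 2.19 and 2.29 in LPR. LPR 3 lay above MRL 3 there, so that the groups overlapped, and the change of -0.24 with an SE of 0.14 did not pass (adjusted p 0.275).

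*Slc5a1* had 1 probe (chr5:33504561-33504620). The MRL mice gave -0.83, -0.78 and -0.54, and the LPR mice -1.17, -1.18 and -1.06. All LPR mice were lower, by 0.43 on average with an SE of 0.12, and the adjusted p was 0.0607. Without a called change, the 95% interval ran from -0.70 to -0.15.

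Phosphate is reclaimed by NaPi-IIa (*Slc34a1*) and NaPi-IIc (*Slc34a3*) in the brush border. PiT-1 (*Slc20a1*) is a sodium-phosphate cotransporter of many tissues. None of the 3 genes passed the test by its brightest probe, and limma called 0 of their 6 probes. At an unadjusted p under 0.05 the tally over all member probes was 14 of 19 lower and 0 higher, against 20.5% lower and 9.83% higher among all tested probes. It included both *Slc34a3* and both *Slc20a1* probes.

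The brightest *Slc34a1* probe (chr13:55515201-55515259) gave 7.25, 7.44 and 7.08 in MRL and 6.79, 7.15 and 6.94 in LPR. LPR 2 lay above MRL 3, and the change of -0.30 with an SE of 0.14 did not pass (adjusted p 0.216). Its second probe (chr13:55514826-55514885) also overlapped, with a change of -0.13 and an SE of 0.22. The 95% intervals reached from -0.64 to 0.05 and from -0.65 to 0.39, and a fall of the size seen for *Slc5a2* lay inside both.

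*Slc34a3* was lower in every LPR mouse at both probes. At the brightest probe (chr2:25084438-25084497) the MRL mice gave 4.45, 4.89 and 4.39, and the LPR mice 3.80, 4.12 and 3.98. The change was -0.61 with an SE of 0.17, as large as that of *Slc5a2*, but the spread among MRL mice was wider (SD 0.28) and the adjusted p was 0.0602. At the second probe, shown above, the MRL mice gave 1.10, 1.51 and 0.81, and the LPR mice 0.51, 0.81 and 0.64. LPR 2 came just below MRL 3 there. The change was -0.49 with an SE of 0.19 (adjusted p 0.143).

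*Slc20a1* gave 1.47, 1.62 and 1.49 in MRL and 1.40, 1.01 and 1.19 in LPR at its brightest probe (chr2:129037130-129037189). The groups did not overlap, although LPR 1 came close to MRL 1. The change was -0.33 with an SE of 0.13 (adjusted p 0.143). A second, dim probe for another transcript of the gene (chr2:129029990-129030049) was above background on 2 MRL arrays and 1 LPR array, and its change of -0.79 with an SE of 0.25 did not pass (adjusted p 0.0922). With normexp background correction that change was -0.31.

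NHE3 (*Slc9a3*) is the main route of sodium entry and proton secretion in the proximal tubule, and NBCe1 (*Slc4a4*) returns the reclaimed bicarbonate to the blood. Both genes were lower in LPR kidneys, at 4 of their 5 tested probes.

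At the brightest *Slc9a3* probe (chr13:74306830-74306889) the MRL mice gave 3.69, 3.77 and 3.87. The LPR mice gave 3.29, 3.28 and 3.31, within an SD of 0.02. The change was -0.48 with an SE of 0.10, 1.39-fold lower, with an adjusted p of 0.025 by limma. At the probe shown above, which is annotated to another transcript of the gene, the MRL mice gave -3.23, -3.01 and -2.69, and the LPR mice -3.73, -3.78 and -3.76. That change was -0.78 with an SE of 0.15, at an adjusted p of 0.019. With normexp background correction it was -0.49, beside -0.49 at the brightest probe. As a gene *Slc9a3* lost its call under 9 of the 21 other ways of processing. The call at the brightest probe held without LPR 2 but was lost without any other single mouse, with adjusted p between 0.0505 and 0.0946. At the other probe it was lost without MRL 2 (0.0596), LPR 1 (0.0523) or LPR 3 (0.0625).

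*Slc4a4* had 5 probes. The brightest (chr5:89667693-89667752) gave 6.28, 6.22 and 6.01 in MRL and 5.54, 5.15 and 5.67 in LPR. All LPR mice were lower, LPR 2 the most. The change was -0.72 with an SE of 0.16, 1.64-fold lower, with an adjusted p of 0.0335 by limma. A probe upstream of it in the same transcript (chr5:89663826-89663885) gave 4.44, 4.30 and 4.03 in MRL and 3.53, 3.32 and 3.54 in LPR, a change of -0.79 with an SE of 0.14 (adjusted p 0.0138). The changes at these 2 probes differed by -0.08 with an SE of 0.10. One further tested probe, for another annotated transcript (chr5:89471169-89471228), changed by -0.59 with an SE of 0.18 and did not pass (adjusted p 0.0799), and every LPR mouse was again below every MRL mouse.

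The 2 remaining *Slc4a4* probes were not tested. One (chr5:89317188-89317247) was above background on 2 MRL arrays and on 0 LPR arrays. The groups overlapped there, with LPR 3 above MRL 3. The other (chr5:89242360-89242419) was not well above background on any array. As a gene *Slc4a4* lost its call under 12 of the 21 other ways of processing. The call at the brightest probe was lost without MRL 1 (adjusted p 0.103), MRL 2 (0.104), MRL 3 (0.0578) or LPR 1 (0.0683). By limma the adjusted p was also 0.0794 with quantile normalization and 0.0725 without the filter on dim probes. The t-test of the paper's methods gave an adjusted p of 0.102 on log2 values and 0.0849 on linear values. Its unadjusted p was under 0.05 on both scales. At the upstream probe the call was lost without MRL 2 alone among the single mice (0.0543 by limma). The t-test lost it as well (adjusted p 0.0562 on log2 values and 0.0745 on linear values).

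**Figure D2:**
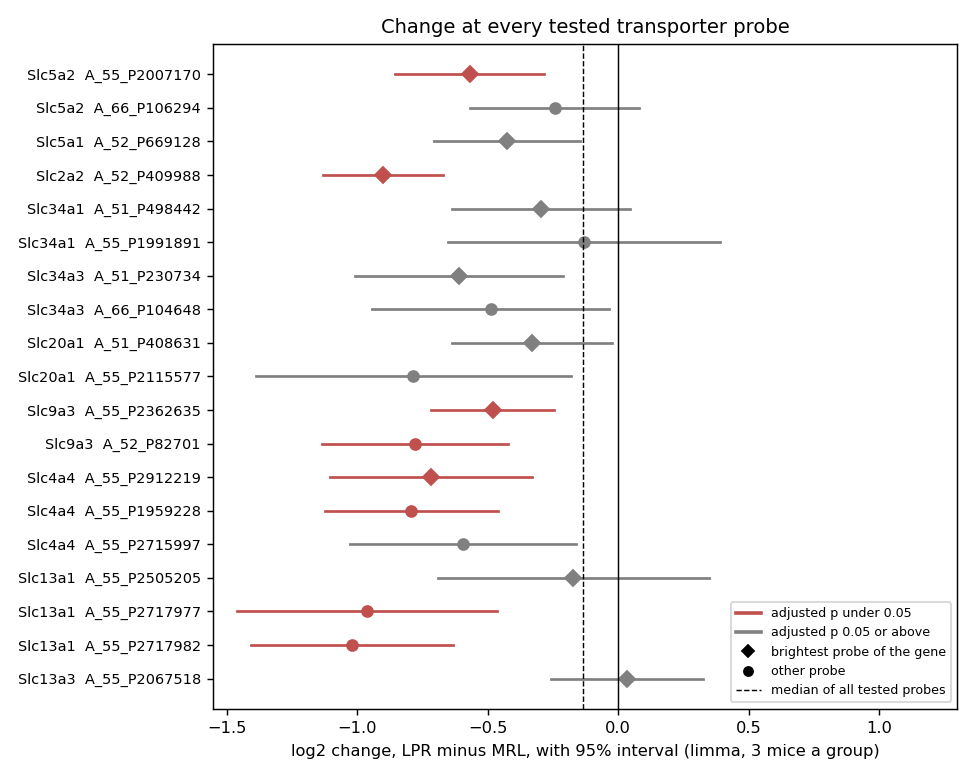
The log2 change (LPR minus MRL) with its 95% interval from limma is plotted for the 19 tested probes, with diamonds for the brightest probe of a gene, red for an adjusted p under 0.05, a solid line at 0 and a dashed line at the median of all tested probes, -0.14. Every estimate but that of Slc13a3 lies below 0, and the 3 probes of Slc13a1 do not fall together.

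NaS1 (*Slc13a1*) takes sulfate from the filtrate, and NaDC3 (*Slc13a3*) carries dicarboxylates such as succinate and alpha-ketoglutarate on the blood side of the cell. Neither gene was called by its brightest probe. *Slc13a3*, with 1 probe (chr2:165230796-165230855), gave 6.08, 6.22 and 6.39 in MRL and 6.16, 6.36 and 6.28 in LPR. The groups lay over each other, with a change of 0.03 and an SE of 0.12. Its 95% interval, from -0.26 to 0.32, did not reach the fall of *Slc2a2*.

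*Slc13a1* gave different answers at its 3 probes. The probes are annotated to 3 different transcripts of the gene, on the minus strand of chromosome 6. The first 30 bases of each are shown to tell them apart, with the brightest first.
Slc13a1, chr6:24038604-24038663, RefSeq transcript: ccattcaccgcatcttaaacttggagttca
Slc13a1, chr6:24084877-24084936, second transcript: agaaaaatgatccagaggtaaaacaaaagc
Slc13a1, chr6:24055292-24055351, last transcript: gaagtcagcctggtctatatagcaactata

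At the brightest probe the MRL mice were spread from 4.98 in MRL 1 through 5.47 in MRL 2 to 5.84 in MRL 3. The LPR mice gave 5.28, 5.11 and 5.39, inside that range. The change was -0.17 with an SE of 0.22 (adjusted p 0.625). At the probe of the second transcript the MRL mice gave 3.57, 3.88 and 3.70, and the LPR mice 2.50, 2.59 and 3.00. That change was -1.02 with an SE of 0.16, 2.03-fold lower, at an adjusted p of 0.00914 by limma, and the call remained without any single mouse. With the t-test of the paper's methods it was lost (adjusted p 0.0546 on log2 values and 0.0514 on linear values). At the probe of the last transcript the MRL mice gave -1.00, -0.48 and -0.76, and the LPR mice -1.74, -2.04 and -1.36. The change there was -0.96 with an SE of 0.21 (adjusted p 0.0298). That call was lost without MRL 2 (0.0897), MRL 3 (0.0817), LPR 1 (0.0787) or LPR 2 (0.0613).

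**Figure D3:**
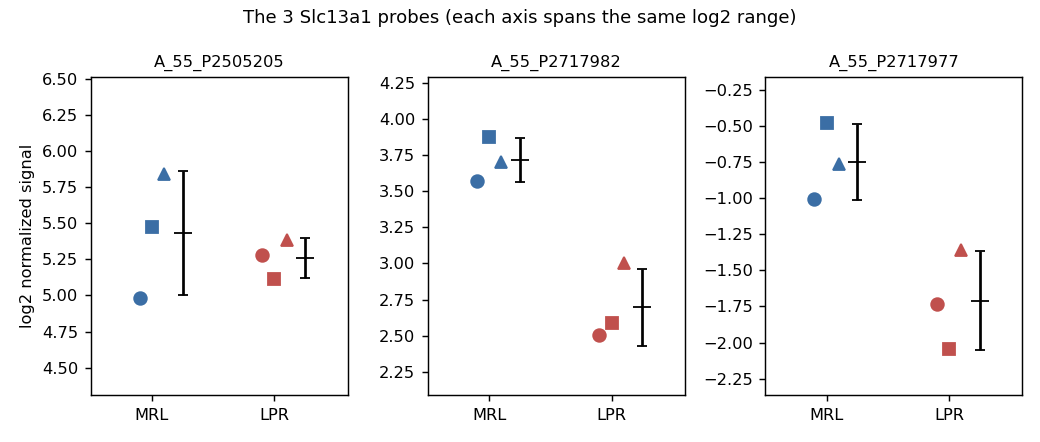
The log2 normalized signal at each of the 3 Slc13a1 probes is plotted by mouse, MRL in blue and LPR in red with 1 marker shape per replicate number, beside the mean and SD of 3 mice; the 3 vertical axes start at different levels and span the same range. The groups overlap at the brightest probe, where the MRL mice reach from 4.98 to 5.84, and are apart at the other 2.

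The disagreement between probes of 1 gene was tested on the difference of the 2 probe signals in each mouse. Over the 9 pairs of a brightest and another tested probe, the smallest p that an exact two-sided permutation test allows is 0.1, since each group has 3 mice. For *Slc13a1* the groups did not overlap in either pair, with differences of change of -0.85 (SE 0.25) and -0.79 (SE 0.24). Both had an exact permutation p of 0.1, and 0.18 after adjustment over the 9 pairs. The *Slc5a2*, *Slc34a3* and *Slc9a3* pairs reached the same p. There the second probe changed by 0.33 more upward for *Slc5a2*, by 0.12 more upward for *Slc34a3* and by 0.30 more downward for *Slc9a3*. With the mean of its tested probes in place of the brightest, *Slc13a1* was called lower, at -0.72 and an adjusted p of 0.0409 by limma.

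The individual mice differed little in the size of the shift. The median deviation of the 10 genes from the MRL mean was -0.47 in LPR 1, -0.48 in LPR 2 and -0.40 in LPR 3. LPR 1 was the lowest LPR mouse for 5 genes, LPR 2 for the other 5 and LPR 3 for 0. Among the controls MRL 1 was the lowest for 7 genes, with a median deviation of -0.10, against 0.05 in MRL 2 and 0.03 in MRL 3. The wide MRL range of *Slc13a1* lay between MRL 1 and MRL 3, whereas for *Slc34a1* and *Slc34a3* MRL 2 was the highest and MRL 3 the lowest.

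The slide column was read from the first digit of the position that ends each array barcode, and this reading was not checked. So read, slide column 1 held MRL 1 to 3 and LPR 1, and column 2 held LPR 2 and LPR 3. With the column as a block, the estimate is that of LPR 1 against the 3 controls, and 1 member gene, *Slc2a2*, was called, at -0.94. Within column 1 the other called genes also had LPR 1 below every control, at -0.66 for *Slc5a2*, -0.63 for *Slc4a4* and -0.48 for *Slc9a3*. There *Slc20a1* was at -0.13 and *Slc34a1* at -0.47. The part of the slide column in the counts was not tested. LPR 1 had the highest 75th percentile of signal, 942 against 706 to 759 on the other arrays.

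Other genes of the same pathways were taken from lists chosen by function, with earlier results of these data known. The shares of all genes are therefore set beside their counts as a description only. All 44 were tested, and 9 were lower and 0 higher by limma, where 5.47% of all genes were called lower. At an unadjusted p under 0.05 there were 23 lower and 0 higher, against 18.9% of all genes lower. Every LPR mouse was below every MRL mouse in 26 of the 44, or 59.1%, against 25.6% of all genes, and above in 0. Their median change was -0.33.

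In the group of other sugar and monocarboxylate transporters, 1 of 8 was lower. *Slc5a12*, a lactate transporter of the proximal tubule, gave 5.66, 5.34 and 5.29 in MRL and 4.58, 4.68 and 4.53 in LPR. The change was -0.84 with an SE of 0.13 (adjusted p 0.00828), and it was kept without any single mouse. The t-test of the paper's methods kept the call on log2 values and lost it on linear values (adjusted p 0.0669). *Slc5a8*, another monocarboxylate cotransporter, changed by -0.95 with an SE of 0.25 and missed the threshold (adjusted p 0.0548). It was singled out after its values were seen.

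Among 5 genes of renal glucose production, *Pck1* alone was lower. It encodes the cytosolic phosphoenolpyruvate carboxykinase, an enzyme of gluconeogenesis from lactate and amino acids. The MRL mice gave 6.52, 6.47 and 6.35, and the LPR mice 4.66, 5.09 and 5.26. The change of -1.45 with an SE of 0.17 was a 2.73-fold fall (adjusted p 0.00211), larger than that of any member, and it was called under each of the 21 alternatives.

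Of 10 genes of other phosphate transport and its hormone control, 1 was lower. *Kl* encodes Klotho, the coreceptor through which the kidney reads the phosphate-lowering hormone FGF23. Its brightest probe gave 3.78, 4.02 and 3.77 in MRL and 3.22, 3.45 and 3.35 in LPR, a change of -0.52 with an SE of 0.12 (adjusted p 0.0357), and its second probe was called too. The *Kl* call at the brightest probe held without LPR 2 and was lost without any other single mouse, with adjusted p between 0.0776 and 0.121. The 2 vitamin D enzymes varied widely among mice and were singled out after their values were seen. *Cyp24a1*, which degrades active vitamin D, gave 2.19, 3.55 and 4.57 in MRL and 0.40, 0.93 and 2.11 in LPR. LPR was lower in every mouse, by 2.29 with an SE of 0.66, and the adjusted p was 0.067. *Cyp27b1*, which makes active vitamin D, gave -1.53, 0.69 and -3.94 in MRL and -1.47, -0.69 and 0.92 in LPR, so that the groups overlapped (adjusted p 0.519).

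Of the sodium pump and carbonic anhydrases, 2 of 7 genes were lower. *Atp1b1*, the beta subunit of the pump, changed by -0.43 with an SE of 0.10 (adjusted p 0.0412). Its call was lost without any 1 of the 6 mice. *Car2*, the cytosolic carbonic anhydrase that feeds bicarbonate to NBCe1, changed by -0.55 with an SE of 0.11 (adjusted p 0.0213). For *Car2* the call was lost without MRL 2, MRL 3, LPR 1 or LPR 3, with adjusted p between 0.0536 and 0.0845.

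The other sulfate and organic anion carriers had 3 of 4 genes lower, and their median of -0.92 was the lowest of the 7 lists. *Slc26a6*, an anion exchanger for oxalate, chloride and bicarbonate, changed by -0.96 with an SE of 0.16 (adjusted p 0.00998), and each of its 3 probes was called. *Slc13a2*, the citrate and dicarboxylate cotransporter of the brush border, changed by -0.88 with an SE of 0.18 (adjusted p 0.022). *Slc13a5*, a citrate cotransporter, gave -3.88, -3.98 and -3.81 in MRL and -5.95, -5.36 and -4.73 in LPR. It fell by 1.46 with an SE of 0.29 (adjusted p 0.0205), and by 0.59 with normexp background correction. The *Slc26a6* call was kept without any single mouse. It was lost with the t-test of the paper's methods (adjusted p 0.0551 on log2 values and 0.0729 on linear values). The *Slc13a2* call was lost without MRL 1, 2 or 3, and that of *Slc13a5* without MRL 1, 2 or 3 or LPR 2.

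Of the 6 scaffold and partner genes that anchor or accompany NaPi-IIa, NHE3 or SGLT2 in the brush border, 0 passed, with a median of -0.18. Among the tubular transcription factors, the probes of *Hnf4a* disagreed, as was seen after the values were known. The brightest changed by -0.15 (adjusted p 0.514) and another by -0.60 with an SE of 0.10 (adjusted p 0.0125).

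**Figure D4:**
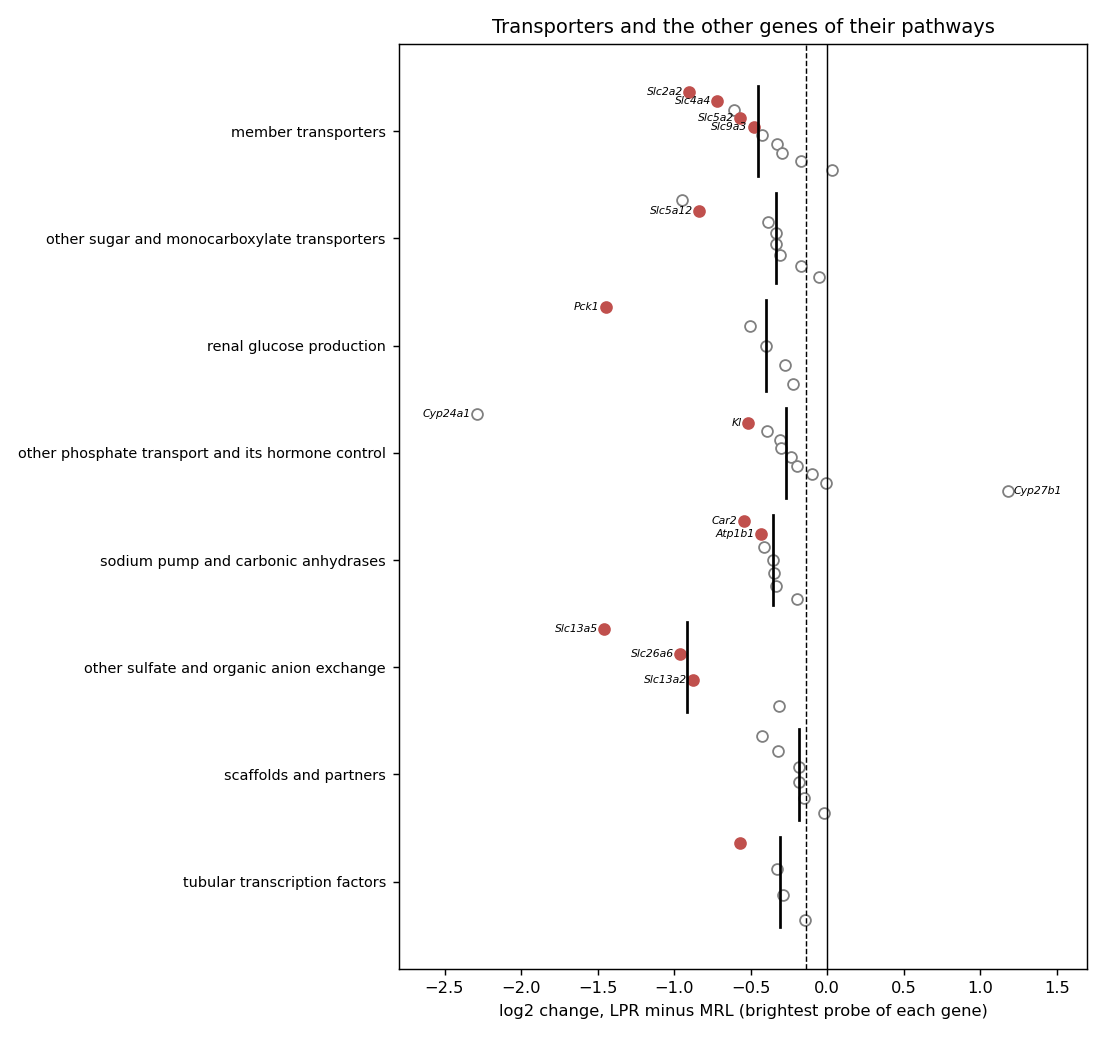
The log2 change (LPR minus MRL, brightest probe) of each gene is plotted for the 10 member transporters and for 7 lists of other genes of their pathways, filled red where the adjusted p was under 0.05 and open otherwise, with a black bar at the median of each list, a solid line at 0 and a dashed line at -0.14. Called genes appear to the left of 0 only, and the lowest list median is that of the other sulfate and organic anion carriers.

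The tissue held what the labels say and more. All 12 proximal tubule markers were above background on all arrays, and 1 of them, *Lrp2* (the endocytic receptor megalin), was lower in LPR, at -0.39 with an adjusted p of 0.0492, a call that was lost without any 1 of the 6 mice. Their median change was -0.27, and their summed normalized signal was 1518 to 1569 in MRL and 1190 to 1305 in LPR. Macrophage markers were higher in 6 of 6 genes, with a median change of 3.22 and a summed signal of 15.9 to 19.3 in MRL and 53.1 to 60.7 in LPR. T cell markers were higher in 5 of 6, with sums of 2.48 to 2.93 and 9.93 to 11.9. B cell markers were higher in 3 of 4, with sums of 0.598 to 0.811 and 3.47 to 4.67. The other B cell gene, *Ms4a1*, was lower at its brightest probe (adjusted p 0.0497) and higher at its second (adjusted p 0.00281). Fibroblast markers were higher in 3 of 4, with sums of 14.2 to 14.6 and 26.2 to 30.1. Of the other nephron and vessel lists, 0 genes were higher. The lower ones were 0 of 4 thick ascending limb genes, 1 of 3 of the distal convoluted tubule, 1 of 6 of the collecting duct, 0 of 5 of podocytes and 1 of 4 of endothelium. In the same order, the median changes of these lists were -0.39, -0.78, -0.16, 0.09 and -0.15. The first 2 of these medians were below that of the proximal tubule markers.

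Of 7 injured tubule markers 2 were higher. The summed signal of all 7 was 162 to 178 in MRL and 189 to 216 in LPR. That sum came mainly from *Spp1* and *Clu*, which did not pass. They changed by 0.30 and -0.06 (adjusted p 0.14 and 0.852 by limma). The brightest probe of *Il1f6*, made by damaged tubules, was well above background on 0 MRL arrays. It was called higher in LPR (adjusted p 0.000657 by limma). With each MRL signal set no lower than the dimmest spot flagged above background on its array, the LPR signal was 6.04-fold higher. Without that floor the log2 change at this probe was 3.22, and it was 0.88 with normexp background correction. The second *Il1f6* probe, above background on 1 MRL array, was called higher too (adjusted p 0.0302). *Lcn2* rose by 2.14 with an SE of 0.30 (adjusted p 0.00483). The t-test of the paper's methods lost this call (adjusted p 0.0538 on log2 values and 0.118 on linear values). On linear values that t-test also lost the call at the brightest *Il1f6* probe (adjusted p 0.0921). The kidney injury marker *Havcr1* overlapped between the groups (adjusted p 0.34). The part of these cell types and of injury in the transporter changes was not tested. When the arrays were scaled to the mean of the 12 proximal tubule markers instead, a choice made after seeing the data, the median of all tested probes moved from -0.14 to 0.15. The member median was then -0.17, and *Slc2a2* alone of the 10 genes was called, at -0.62. *Slc13a1* turned to 0.11 under that scaling, with an adjusted p of 0.795.

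The *Fas* gene, defective in LPR mice, gave no clear check of the strains. At the brightest *Fas* probe the MRL mice gave -0.37, -0.28 and -0.06, and the LPR mice -0.49, -1.25 and -0.37. The change was -0.47 with an SE of 0.24 (adjusted p 0.234). A dim second *Fas* probe, above background on the 3 LPR arrays and on 0 MRL arrays, was called higher in LPR (adjusted p 0.0338 by limma). With each MRL signal set no lower than the dimmest spot flagged above background on its array, the LPR signal was 1.47-fold higher. With the mean of both probes the *Fas* estimate turned to 0.71 (adjusted p 0.146).

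**Figure D5:**
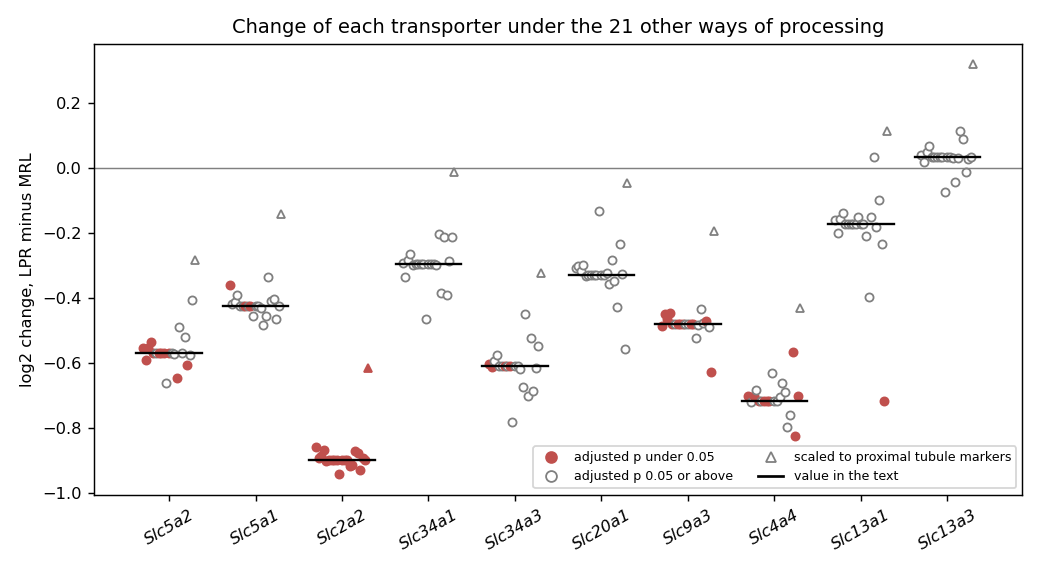
The log2 change (LPR minus MRL) of the brightest probe of each of the 10 genes, or of the mean of its probes, is plotted under the 21 other ways of processing, filled red where the adjusted p was under 0.05, with a triangle for the scaling to proximal tubule markers and a black line at the value in the text. Slc2a2 stays red throughout, between -0.94 and -0.62. Slc5a2, Slc4a4 and Slc9a3 turn open under 10, 12 and 9 of the 21 settings, and Slc13a1 and Slc13a3 cross 0.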

How the data were processed

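The kidneys of 3 MRL and 3 LPR mice were measured on Agilent single-colour arrays, 1 per mouse. The paper's methods name Trizol for the RNA and the labels name a column kit. The deposited intensity values come from Feature Extraction 12.0.3.1, which subtracted the background within each array, and the authors left the arrays unscaled against each other. A second deposited table by the authors holds these signals as a ratio to the 75th percentile of each array, used here as an alternative. Flags for outlier spots and for signals above background are other columns that the authors deposited.

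From these, log2 of the processed signal minus each array's 75th percentile was taken. Outlier spots (73 to 90 per array) and controls were left out, and the spots of 1 probe were averaged. No spot was saturated, and 69.6% to 73.5% of spots were well above background. LPR was set against MRL with limma 3.58.1 (lmFit and eBayes, R 4.3.3), Benjamini-Hochberg adjusted over 39924 probes, with a threshold of 0.05. With 3 mice per group and no technical repeats, this number limits the precision, as does the signal over background for dim probes. The steps were tested on simulated data, and figures drawn with matplotlib 3.10.9.

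The members, the pathway and marker lists and the rule for named genes (all members and every probe, *Fas*, each pathway gene past the threshold, the extremes of marker lists) were chosen with earlier results of these data known. One pathway gene and a promoter motif search are not reported here. The gene remains in the tallies and in the plot, without its name. Names of genes follow the array annotation (mm9), and the 15 member probes with a RefSeq identifier matched the same symbol in the current list. Alternatives were other background corrections, scalings, filters, variance models and tests, the slide column or replicate number as a block, the mean of a gene's probes, and each mouse left out. Whether the replicate numbers pair the mice is not known. Same-numbered MRL and LPR mice had correlations of deviations of 0.115, 0.02 and 0.005, and differently numbered ones of -0.067 to 0.051.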

Additional observations from a re-analysis of the deposited data

How the results depend on the processing

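No member or pathway gene was called higher under any of the 21 alternatives by limma or by the methods' test. The counts of called falls (4 member genes, 8 member probes, 9 pathway genes, 2462 probes in all) depended on the setting. Without a filter on dim probes they were 1, 4, 5 and 1092. With the replicate number as a block they were 2, 5, 6 and 1117, and with the slide column as a block 1, 2, 4 and 463, with 1458 probes higher instead of 2606. The methods' test gave 2, 2, 4 and 1385 with 1736 higher on log2 values, and 2, 2, 5 and 1353 with 1444 higher on linear values. At their own unadjusted threshold 6 and 7 member genes were lower, against 16.7% and 17.3% of all genes. Normexp correction gave 6, 11, 16 and 4498, with 2532 higher. Scaling to the proximal tubule markers, chosen after seeing the data, gave 1, 2, 5 and 376, with 4751 higher and a member median of -0.17. With the mean of a gene's probes the median was -0.55.

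Leaving out 1 mouse gave 1 to 4 member genes, 2 to 7 member probes, 3 to 9 pathway genes and 760 to 2269 probes lower, 1958 to 2370 higher, and a member median of -0.50 to -0.41. The member count fell to 1 gene without MRL 2, MRL 3 or LPR 1. *Slc13a3* turned negative with the slide column as a block (-0.074), and ranged from -0.042 without MRL 1 to 0.11 without MRL 3, being below 0 also without LPR 2. *Slc13a1* at its brightest probe ranged from -0.40 without MRL 1 to 0.033 without MRL 3. Under the marker scaling *Slc13a1* was at 0.11, the second *Slc34a1* probe at 0.15 and the second *Slc5a2* probe at 0.042. *Fas* turned to 0.71 with the mean of its probes. *Slc34a3* passed under 4 alternatives and *Slc5a1* under 3. The cause of these moves was not tested. Signal over background limits the dim *Slc20a1* and *Slc4a4* probes.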
